A study of Mus musculus with 6 samples.

Results

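The genes described here encode the constant regions of antibodies and the proteins that carry IgA across the gut epithelium, measured by RNA-seq in colon tumors. The 10 genes were chosen by name and found by symbol among the 54532 genes of the deposited table. They are the heavy-chain genes Igha, Ighm, Ighg1, Ighg2b, Ighg2c and Ighg3, the light-chain genes Igkc and Iglc1, the joining chain gene Jchain, and Pigr, the polymeric immunoglobulin receptor. All 10 passed the filter on low values, a mean FPKM of at least 0.5, that left 16426 genes for testing. Ighg3 passed it only through 1 tumor, with 2.80 FPKM against 0.024 to 0.27 in the others. The tumors came from AOM/DSS mice, in which the mutagen AOM and cycles of DSS colitis produce colitis-associated carcinoma. The control tumors (n = 3) were from Tmem173fl/fl mice, in which Tmem173, the gene of STING, is flanked by loxP sites. The Tmem173iΔmye tumors (n = 3) were from Tmem173fl/flLyz2-Creert2 mice, in which Cre is driven by the promoter of Lyz2, a gene of macrophages, monocytes and neutrophils. Both groups were on the C57BL/6N background, carried the floxed alleles and received tamoxifen (TAM), which switches Cre on, after 3 cycles of AOM/DSS. The labels call the groups WT and CRE, and the alleles and TAM are taken from the study's methods. The study's methods give an age for the arm with deletion before inflammation, but none for this arm, and whether several tumors were pooled per sample is not given in the sources used here. Since nothing says how the samples of a group were kept apart, p-values measure the spread between these samples.

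An antibody is built of heavy chains, whose constant region sets the class (IgM, IgG or IgA), and of kappa or lambda light chains. In the gut, most plasma cells secrete IgA. There, IgA is joined into dimers by the J chain, bound by the polymeric immunoglobulin receptor at the base of epithelial cells, carried through the cell and released into the lumen as secretory IgA. Naive and follicular B cells carry IgM, with IgD beside it, on their surface. In whole tumor RNA, fewer cells of a type and less RNA per cell cannot be told apart.

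The end of the coding sequence shows which heavy chains can be joined by the J chain. The last 66 coding bases of each secreted transcript, stop codon included, are printed for this reason from the GENCODE M21 transcripts of GRCm38, 5′ to 3′ on the minus strand of chromosome 12. Capitals mark a cysteine codon just before the final amino acid, the residue through which IgA and IgM bind the J chain. It is found in Igha (chr12:113258768-113258833) and Ighm (chr12:113420867-113420932). The 4 Ighg genes have a glycine codon just before their final amino acid, in the bases ggtaaa ahead of the stop codon. The same bases ggtaaa stand near the start of the Igha and Ighm stretches. The glycine of the Ighg genes is thus not in the place of the cysteine.
Igha: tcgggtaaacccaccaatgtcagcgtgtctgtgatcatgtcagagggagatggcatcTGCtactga
Ighm: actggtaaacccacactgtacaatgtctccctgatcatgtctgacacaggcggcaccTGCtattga
Ighg1: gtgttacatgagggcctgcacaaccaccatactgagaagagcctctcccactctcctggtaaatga
Ighg2b: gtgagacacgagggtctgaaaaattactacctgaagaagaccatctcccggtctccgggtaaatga
Ighg2c: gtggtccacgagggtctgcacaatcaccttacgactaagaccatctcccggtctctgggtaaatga
Ighg3: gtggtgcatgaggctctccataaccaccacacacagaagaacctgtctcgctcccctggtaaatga
The genes could be told apart by sequence to different degrees. The secreted coding sequence of Igha was 47.9% identical to that of Ighm, with a longest shared run of 12 bases. Ighg2b and Ighg2c were 85.8% identical and shared a run of 78 bases, so that reads may be split between them, and their separate values are uncertain. The other pairs of Ighg genes were 74.2% to 76.4% identical, with shared runs of at most 41 bases. Iglc1 was 73.3% identical to Iglc2 and 74.1% to Iglc3.

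Igha carried most of the heavy-chain RNA in every tumor. Igha (ENSMUSG00000095079), the heavy chain of IgA, lies on chromosome 12 of GRCm38 from 113254830 to 113260236. Its FPKM, reads scaled by gene length and sequencing depth, was 297, 65.0 and 156 in replicates 1, 2 and 3 of Tmem173fl/fl and 653, 239 and 351 in replicates 1, 2 and 3 of Tmem173iΔmye. The lowest values were those of Tmem173fl/fl replicates 2 and 3, but Tmem173fl/fl replicate 1 lay above Tmem173iΔmye replicate 2, so the groups overlapped. The mean was 173 ± 117 (SD, n = 3) in Tmem173fl/fl and 415 ± 214 (SD, n = 3) in Tmem173iΔmye. On counts, the log2 fold change (log2FC) of Tmem173iΔmye against Tmem173fl/fl was 1.25 ± 0.56 (SE, adjusted p = 0.742). Fold changes, their SE and adjusted p-values are from the edgeR quasi-likelihood test, adjusted over all genes tested by the Benjamini-Hochberg method.

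Igkc, the constant region of the kappa light chain (ENSMUSG00000076609, chromosome 6, 70726435 to 70726966), followed the same order of tumors. Its FPKM was 819, 204 and 327 in the Tmem173fl/fl and 2138, 616 and 836 in the Tmem173iΔmye tumors. The highest tumor, Tmem173iΔmye replicate 1, had more than all of the others, and the groups again overlapped through Tmem173fl/fl replicate 1. Its log2FC was 1.40 ± 0.61 (SE, adjusted p = 0.742 from edgeR).

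Jchain, the joining chain of polymeric IgA and IgM (ENSMUSG00000067149, chromosome 5, 88519809 to 88527891), was the one member past the study's own rule for differential expression. This rule asks for a change of 1 or more in log2 in either direction together with an unadjusted p-value under 0.05. The study's methods state it for DESeq2, and it is applied here to edgeR. For its acute colitis data, a figure legend of the study names an adjusted p-value under 0.05 instead. With DESeq2, Jchain was again the one member past the rule (unadjusted p = 0.00977). Its FPKM was 73.6, 27.8 and 34.9 in the Tmem173fl/fl and 149.8, 53.5 and 90.1 in the Tmem173iΔmye tumors. The order of the tumors was that of Igha and Igkc, with the same overlap. The log2FC of Jchain was 1.10 ± 0.46 (SE, unadjusted p = 0.0437, adjusted p = 0.742 from edgeR). Of the 10 genes, 1 was thus past this rule, against 2.12% of all genes tested (1.26% higher and 0.864% lower in Tmem173iΔmye). An adjusted p-value under 0.05 was reached by 0 of the 10 genes and by 0% of all genes in edgeR. With DESeq2 it was reached by 0 of the 10 and by 28 of all genes, and with limma voom by 0 of both. In edgeR, 1 of the 10 and 1008 of all genes had an unadjusted p-value under 0.05. The groups overlapped for each of the 10 genes, whereas they did not overlap for 12.4% of all genes.

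**Figure D1:**
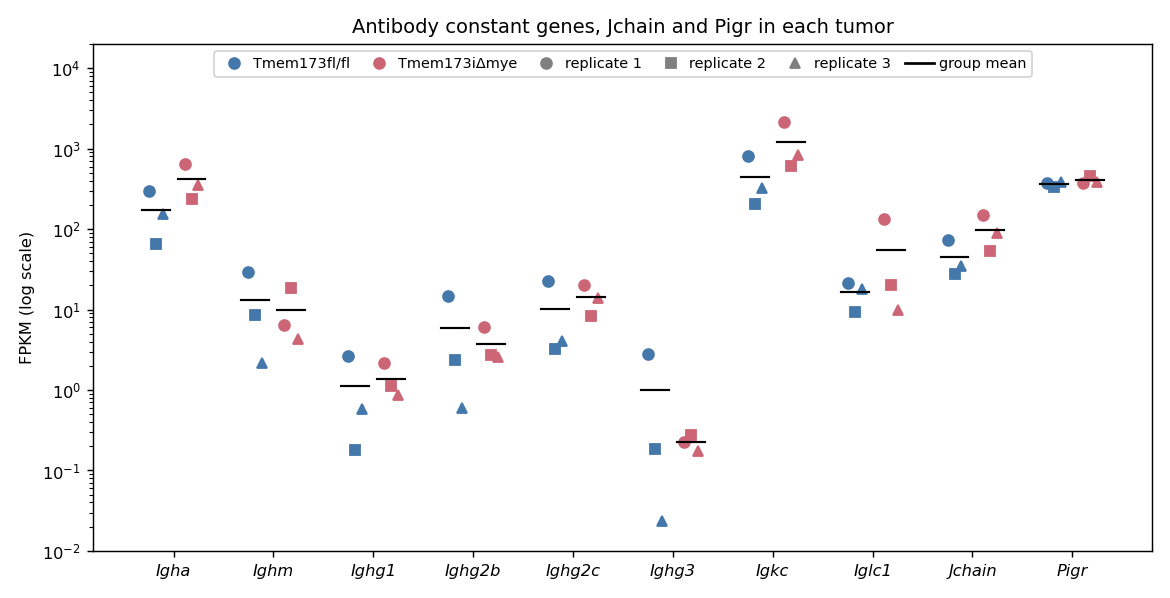
FPKM (log scale) of each of the 10 genes in each of the 6 tumors, with Tmem173fl/fl in blue, Tmem173iΔmye in red, the marker giving the replicate and the line the group mean. Igha, Igkc and Jchain keep one order of tumors, Ighm has another, and Pigr lies between 333 and 456 in every tumor.

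These 3 values depended on single tumors. Without Tmem173fl/fl replicate 1, the log2FC values of Igha, Igkc and Jchain were 1.91, 2.17 and 1.64. Without Tmem173iΔmye replicate 1 they were 0.76, 0.68 and 0.65, and none of the 10 genes was past the study's rule. Reads of Y-linked genes were found in Tmem173fl/fl replicate 1 and in Tmem173iΔmye replicates 1 and 2 (2655 to 3547 counts of Ddx3y, Eif2s3y, Kdm5d and Uty together) and hardly in the other tumors (at most 2 counts). Xist, an RNA of the inactive X chromosome, showed the reverse, with 6, 20088 and 26549 counts in Tmem173fl/fl and 2, 11 and 19712 in Tmem173iΔmye. The labels give no sex, and the tumors with Y-linked reads were not evenly spread over the groups. With the presence of these reads as a covariate, the log2FC values were 1.12, 1.196 and 0.99, and Igkc was the member past the study's rule (unadjusted p = 0.0378 from edgeR).

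Iglc1, the constant region of the main lambda light chain (ENSMUSG00000105906, chromosome 16, 19061618 to 19062071), was set apart by 1 tumor. Its FPKM was 133 in Tmem173iΔmye replicate 1, against 19.96 and 9.76 in Tmem173iΔmye replicates 2 and 3 and 21.4, 9.42 and 18.1 in the Tmem173fl/fl tumors. The other 5 tumors thus covered the same range in both groups. The log2FC was 1.72 ± 0.88 (SE, adjusted p = 0.742 from edgeR), was 0.71 with the Y-linked covariate, and was -0.14 without Tmem173iΔmye replicate 1. Variable genes of the same chain gave a like picture, as the 3 Iglv genes listed had 1128 counts in Tmem173iΔmye replicate 1 and 93 to 239 in the others. The Igkv genes took 1952, 607 and 764 reads in Tmem173fl/fl tumors against 4739, 1400 and 1986 in Tmem173iΔmye tumors, in the order of Igkc. As a share of light-chain FPKM (Iglc1 over Iglc1 and Igkc), lambda was 2.55%, 4.42% and 5.26% in Tmem173fl/fl and 5.86%, 3.14% and 1.15% in Tmem173iΔmye, so that the shares overlapped between the groups. The means of 4.08% ± 1.39 (SD, n = 3) and 3.39% ± 2.36 (SD, n = 3) differed by less than the spread between tumors (exact two-sided permutation p = 0.8). With Iglc1, Iglc2 and Iglc3 summed, the share was 5.03%, 7.14% and 7.21% in Tmem173fl/fl and 7.11%, 4.58% and 2.79% in Tmem173iΔmye, a difference of -1.64 points (exact permutation p = 0.2).

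**Figure D2:**
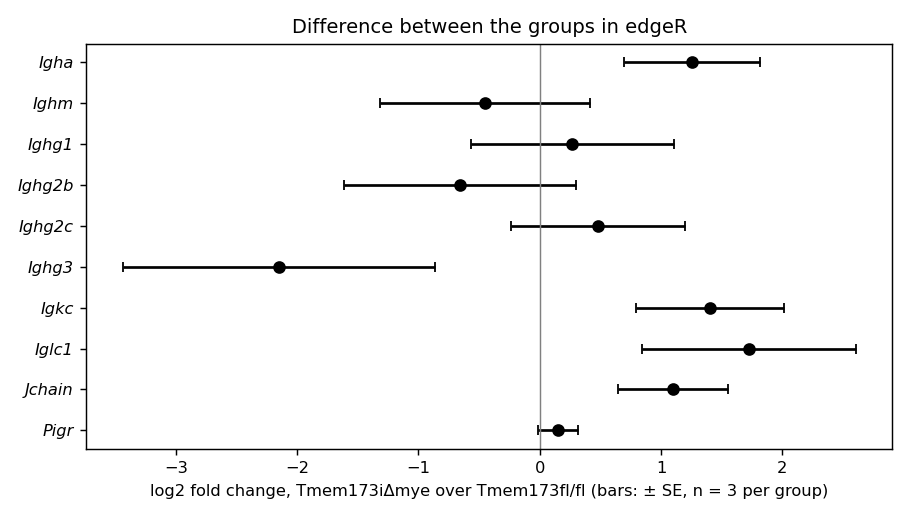
Log2 fold change of the 10 genes for Tmem173iΔmye over Tmem173fl/fl from edgeR, with bars of ± SE (n = 3 per group). The values run from -2.15 for Ighg3 to 1.72 for Iglc1, and Pigr lies at 0.15 with the smallest error.

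Ighm, the heavy chain of IgM (ENSMUSG00000076617, chromosome 12, 113418558 to 113422730), did not follow the IgA genes. Its FPKM was 29.1, 8.61 and 2.18 in the Tmem173fl/fl and 6.44, 18.5 and 4.33 in the Tmem173iΔmye tumors. It was highest in Tmem173fl/fl replicate 1 and Tmem173iΔmye replicate 2, while Tmem173iΔmye replicate 1, the tumor richest in Igha, had the middle value of its group. The log2FC was -0.45 ± 0.86 (SE, adjusted p = 0.903 from edgeR), which is smaller than its error. Without Tmem173fl/fl replicate 1 it was 0.87.

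The IgG genes were far lower than Igha in every tumor. Ighg2c, the IgG2 gene that C57BL/6 mice carry in place of Ighg2a, had the highest FPKM of them, with 22.8, 3.28 and 4.05 in the Tmem173fl/fl and 20.1, 8.39 and 13.8 in the Tmem173iΔmye tumors. It made up 53.0% to 79.4% of the FPKM of the 4 Ighg genes, which rests on its shorter gene model of 1326 bases, against 2678 for Ighg2b. Per base of the secreted transcripts, Ighg2c made up 36.0% and 37.3% in Tmem173fl/fl replicates 1 and 2, below the 47.0% and 54.4% of Ighg2b, and 50.1% to 65.8% in the other tumors, where it exceeded Ighg2b. Ighg2b had 14.8, 2.37 and 0.60 in Tmem173fl/fl and 6.02, 2.75 and 2.55 in Tmem173iΔmye tumors. In both genes Tmem173fl/fl replicate 1 was the highest tumor, and the spread within Tmem173fl/fl was wider than the difference between the groups. Ighg1 ranged from 0.18 to 2.64 FPKM, with 7 to 107 counts. The log2FC values were 0.48 ± 0.72 (SE) for Ighg2c, -0.66 ± 0.96 (SE) for Ighg2b and 0.27 ± 0.84 (SE) for Ighg1, each smaller than its error (adjusted p from 0.871 to 0.944 in edgeR). Ighg3 was counted 110, 7 and 1 times in the Tmem173fl/fl and 9, 11 and 7 times in the Tmem173iΔmye tumors. Its log2FC of -2.15 ± 1.28 (SE, adjusted p = 0.746 from edgeR) rested on Tmem173fl/fl replicate 1, without which it was 1.12. That value of 1.12 comes from 7 and 1 counts against 9, 11 and 7, and these tumors alone would not have passed Ighg3 through the filter. Without Tmem173fl/fl replicate 1, the log2FC was 1.84 for Ighg1, 1.36 for Ighg2b and 1.95 for Ighg2c. Ighg1 and Ighg2c were past the study's rule in this fit, as were 636 of all 16426 genes, against 349 with all 6 tumors.

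**Figure D3:**
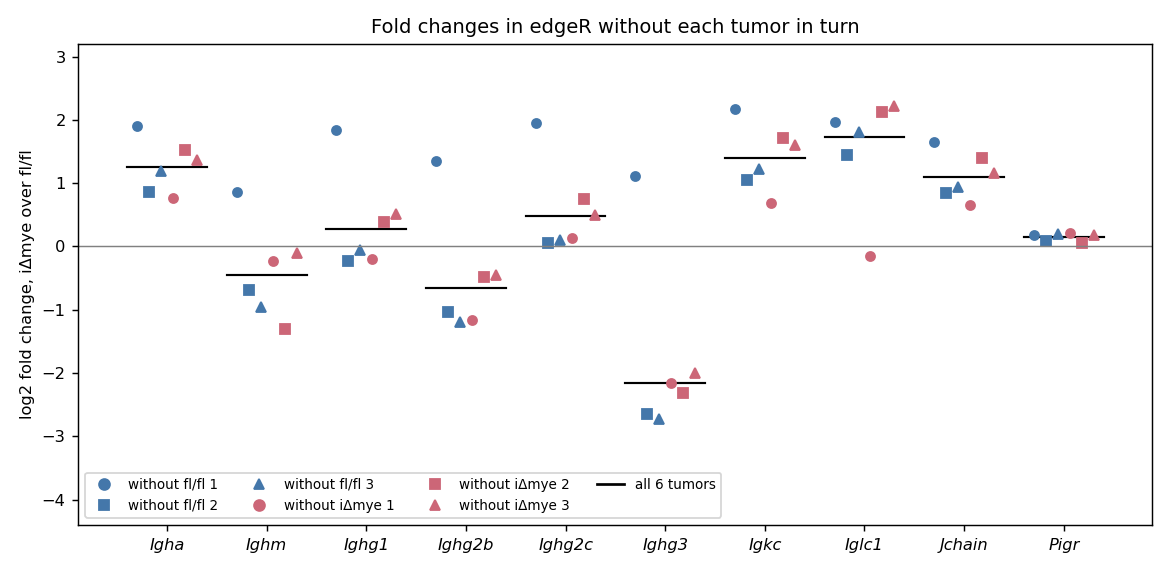
Log2 fold change of each gene for Tmem173iΔmye over Tmem173fl/fl in edgeR with all 6 tumors (line) and without each tumor in turn (markers). Leaving out Tmem173fl/fl replicate 1 moves every gene upward, Pigr only to 0.19, and leaving out Tmem173iΔmye replicate 1 moves Iglc1 from 1.72 to -0.14.

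The balance of the classes was then compared per tumor, as each gene's share of the summed FPKM of the 6 heavy-chain genes. IgA made up 80.5%, 81.6% and 95.5% in the Tmem173fl/fl and 94.9%, 88.5% and 94.2% in the Tmem173iΔmye tumors. The lower shares were those of Tmem173fl/fl replicates 1 and 2 and Tmem173iΔmye replicate 2. The mean IgA share of Tmem173fl/fl was 85.9% ± 8.33 (SD, n = 3) against 92.5% ± 3.50 (SD, n = 3), a difference of 6.68 points within overlapping ranges (exact two-sided permutation p = 0.4, where 3 tumors against 3 cannot go below 0.1). The share of IgM was 7.87%, 10.8% and 1.34% in Tmem173fl/fl and 0.94%, 6.83% and 1.16% in Tmem173iΔmye, and split the same tumors from the others (exact permutation p = 0.2). The share of the 4 Ighg genes was 11.6%, 7.55% and 3.21% in Tmem173fl/fl and stayed between 4.14% and 4.67% in Tmem173iΔmye (exact permutation p = 0.4). The summed heavy-chain FPKM was 369, 79.7 and 163 in Tmem173fl/fl and 688, 270.2 and 373 in Tmem173iΔmye, a mean difference of 1.28 on the log2 scale (exact permutation p = 0.2). Adjusted over the 7 such comparisons made here by the Benjamini-Hochberg method, the smallest p was 0.467.

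**Figure D4:**
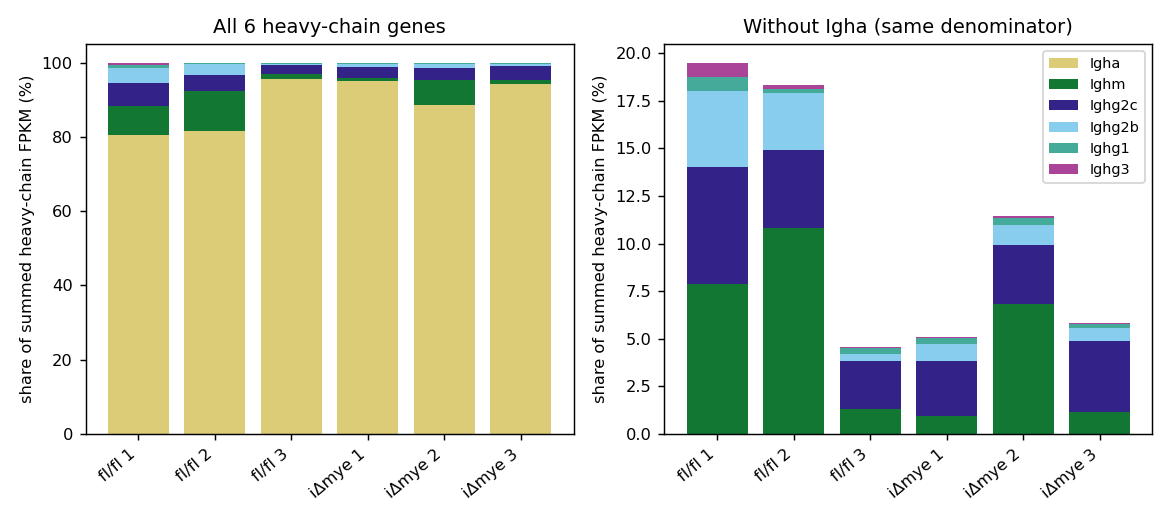
Share of the summed heavy-chain FPKM taken by each of the 6 genes in each tumor, in percent, with all classes on the left and without Igha on the right, on the same denominator. IgA takes 80.5% to 95.5%, and the IgM share is 6.83% or more in fl/fl 1, fl/fl 2 and iΔmye 2 and 1.34% or less in the other tumors.

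The lengths behind these shares matter. The authors divided by the length of the whole gene model, 2668 bases for Igha and 1886 for Ighm, whereas the secreted transcripts have 1100 and 1493 bases. Per kilobase of the secreted transcript, the IgA share was 86.5% to 97.3% and the IgM share 0.50% to 6.07%, with the same tumors at the lower and the upper end. Reads were counted per gene, so that secreted and membrane forms are not separated.

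The tumors highest in Ighm were also the highest in genes of B cells. Ighd, the heavy chain of IgD, had 33.0, 3.93 and 0.66 CPM (counts scaled to library size, normalized by TMM) in Tmem173fl/fl and 0.32, 19.6 and 0.83 CPM in Tmem173iΔmye. Tmem173fl/fl replicate 1 and Tmem173iΔmye replicate 2 were thus the richest in Ighd, and Tmem173iΔmye replicate 1 had the least. Ms4a1, which encodes CD20, ranged from 0.66 to 20.2 CPM. Over the B cell list, 12 of 14 genes were tested, and their summed CPM was 249, 41.7 and 14.3 in Tmem173fl/fl and 23.3, 136 and 26.1 in Tmem173iΔmye. Cxcr5, a homing receptor for follicles (-1.31 ± 1.06, SE), and Pax5, a transcription factor of B cells (-1.27 ± 1.38, SE), had the smallest p-values of the list besides Ms4a1. Of these genes 1 had a log2FC above 0 and 11 below, with a median of -0.94 against -0.0042 for all genes tested, and 0 were past either rule in edgeR or had an unadjusted p-value under 0.05. This direction rested on Tmem173fl/fl replicate 1, without which 12 of the 12 genes were above 0 with a median of 0.97 and 1, Cd37, was past the study's rule. Without Tmem173iΔmye replicate 2, the median was -2.61 and 2, Blk and Ms4a1, were past it. Of all 16426 genes, 636 and 417 were past the rule in these 2 fits. The part of these cells in the Ighm values was not tested.

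Genes of plasma cells gave a weaker picture. Mzb1, a chaperone of antibody assembly, had 7.67, 1.67 and 0.84 CPM in Tmem173fl/fl and 5.49, 4.28 and 3.50 CPM in Tmem173iΔmye, with a log2FC of 0.39 ± 0.72 (SE, adjusted p = 0.900 from edgeR). Xbp1, a transcription factor of secretory cells, had 231.4, 231.2 and 207 CPM in Tmem173fl/fl and 281, 261 and 278 CPM in Tmem173iΔmye. Its values did not overlap between the groups, with a log2FC of 0.29 ± 0.12 (SE, adjusted p = 0.742 from edgeR). The groups did not overlap for 2 of the 17 plasma cell genes tested, against 12.4% of all genes. Irf4 (0.35, SE 0.53), Prdm1 (-0.074, SE 0.23) and Sdc1 (0.11, SE 0.15) had log2FC values smaller than their errors. Sdc1, Xbp1 and Prdm1 are also known in epithelial cells, and Tnfrsf17, the plasma cell receptor BCMA, had at most 6 counts. Among the other genes of this list with the smallest p-values, Creld2 had a log2FC of 0.49 ± 0.18 (SE) and Fkbp11 of 0.75 ± 0.47 (SE). Of 17 plasma cell genes tested, 12 were above 0 and 5 below, with a median of 0.26, and 0 were past either rule in edgeR (2 had an unadjusted p-value under 0.05). Without Tmem173fl/fl replicate 1, 3 were past the study's rule (Irf4, Mzb1 and Slamf7), as were 636 of all 16426 genes. Mzb1 (7.67 CPM) and Irf4 (6.11 CPM) were highest in that tumor, which was also the richest in B cell genes. The part of B cells in these values was not tested.

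**Figure D5:**
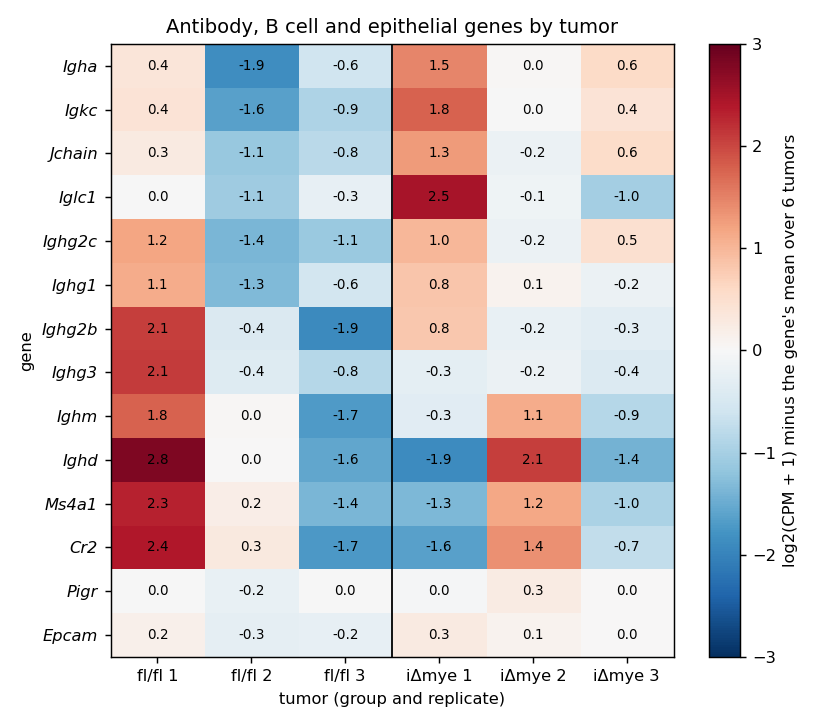
Log2(CPM + 1) of each gene minus its mean over the 6 tumors, by tumor, with red above and blue below the mean. Igha, Igkc and Jchain are highest in iΔmye 1, while Ighm, Ighd, Ms4a1 and Cr2 are highest in fl/fl 1 and iΔmye 2, and Pigr and Epcam hardly vary.

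Pigr (ENSMUSG00000026417, chromosome 1, 130826684 to 130852249) was the steadiest of the 10 genes. Its FPKM was 379, 333 and 384 in the Tmem173fl/fl and 374, 456 and 389 in the Tmem173iΔmye tumors, a 1.37-fold range over tumors in which Igha covered a 10.05-fold range. The means were 365 ± 28.3 (SD, n = 3) and 406 ± 43.7 (SD, n = 3), and the log2FC was 0.15 ± 0.16 (SE, adjusted p = 0.822 from edgeR). Pigr is made by epithelial cells, and Epcam, an adhesion molecule of these cells, had 1603 to 2336 CPM, the level of an abundant gene in every tumor. Of 14 colon epithelial genes, 13 were above 0 with a median of 0.14, and 0 were past either rule in edgeR (1 had an unadjusted p-value under 0.05). The study's rule was passed by Cdx2 without Tmem173fl/fl replicate 1 and by Slc26a3 without Tmem173fl/fl replicate 2. Vil1, an actin-binding protein of the brush border, had a log2FC of 0.35 ± 0.15 (SE), and Slc26a3, a chloride transporter of mature colonocytes, of -1.40 ± 0.94 (SE).

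The ratio of receptor to cargo RNA followed Igha. The FPKM of Pigr over that of Igha was 1.28, 5.11 and 2.46 in Tmem173fl/fl and 0.57, 1.91 and 1.11 in Tmem173iΔmye. Per base of transcript, with 1100 bases for secreted Igha and 3849 for Pigr, it was 0.55, 2.20 and 1.06 in Tmem173fl/fl and 0.25, 0.82 and 0.48 in Tmem173iΔmye, so that the level of the ratio, but not its difference between tumors, depends on the length used. The mean difference in log2 was -1.24 (exact permutation p = 0.2), with overlapping groups. These RNAs come from different cells, so that the ratio describes the tissue and not a cell. Jchain over the summed heavy chains was 0.20, 0.35 and 0.21 in Tmem173fl/fl and 0.22, 0.20 and 0.24 in Tmem173iΔmye (exact permutation p = 0.8), and was thus near 0.2 in every tumor but Tmem173fl/fl replicate 2, the one with the least antibody RNA. Per base of transcript it was 0.28 in that tumor and 0.16 to 0.18 in the others.

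Signals that act on Pigr included cytokines with wide spread. Of 15 tested genes of a list of its regulators, 2 were past the study's rule, both higher in Tmem173iΔmye, against 2.12% of all genes tested. Il17a, which encodes the cytokine IL-17A, was counted 9, 9 and 8 times in Tmem173fl/fl tumors against 61, 56 and 10 times in Tmem173iΔmye tumors, a log2FC of 2.25 ± 0.67 (SE, adjusted p = 0.742 from edgeR). Il1b had 20.8, 18.7 and 16.6 CPM in Tmem173fl/fl and 110, 32.6 and 22.4 CPM in Tmem173iΔmye, a log2FC of 1.56 ± 0.54 (SE, adjusted p = 0.742 from edgeR). The groups did not overlap for these 2 of the 15 genes, against 12.4% of all genes. Each lowest Tmem173iΔmye value, that of replicate 3, lay close to the Tmem173fl/fl tumors. Irf1, an interferon-induced transcription factor, had a log2FC of 0.83 ± 0.40 (SE). The median of the list was 0.019, with 9 genes above 0 and 6 below. With the Y-linked covariate or with limma voom, 0 of them were past the rule. Without Tmem173fl/fl replicate 2, Tmem173fl/fl replicate 3 or Tmem173iΔmye replicate 1 it was 1, Il17a, and without Tmem173fl/fl replicate 1 or Tmem173iΔmye replicate 2 Irf1 was past it as well.

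Some of the genes that induce IgA or draw IgA plasma cells to the mucosa were measured at low levels. Ccr10, the receptor by which IgA plasma cells follow CCL28, was counted 12, 16 and 8 times in Tmem173fl/fl tumors against 38, 19 and 31 times in Tmem173iΔmye tumors. The groups did not overlap, and Ccr10 was the one gene of this list past the study's rule, with a log2FC of 1.26 ± 0.46 (SE, adjusted p = 0.742 from edgeR). Ccr10 was not past it without Tmem173fl/fl replicate 1, Tmem173fl/fl replicate 3, Tmem173iΔmye replicate 1 or Tmem173iΔmye replicate 3. In the first 2 of these fits Lta and Ccl28, respectively, were past it, as were 636 and 218 of all 16426 genes. Aldh1a2 was past it beside Ccr10 with the Y-linked covariate and without Tmem173iΔmye replicate 2, as were 211 and 417 of all genes. Ccl28, the epithelial ligand of CCR10, had 21.8, 21.9 and 41.6 CPM in Tmem173fl/fl and 33.1, 37.6 and 66.7 CPM in Tmem173iΔmye, with overlapping groups and a log2FC of 0.69 ± 0.35 (SE, adjusted p = 0.742 from edgeR). Tnfsf13b, which encodes the B cell survival factor BAFF, had 9.88, 6.20 and 7.26 CPM in Tmem173fl/fl and 14.8, 9.96 and 11.7 CPM in Tmem173iΔmye, a log2FC of 0.64 ± 0.26 (SE, adjusted p = 0.742 from edgeR) without overlap. Tnfsf13, the gene of APRIL, had a log2FC of 0.36 ± 0.32 (SE), and Itgb7, a chain of the gut-homing integrin, of 0.64 ± 0.31 (SE). Of 25 genes of this list, 18 were tested, 12 above and 6 below 0 with a median of 0.23, and Il5 had no count in any tumor. The groups did not overlap for 3 of the 18, against 12.4% of all genes. The study's rule was passed by 1 of the 18, against 2.12% of all genes.

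Some genes outside the antibody system varied across tumors much as Jchain and Pigr did. Among 16268 genes, the log2(CPM + 1) values over the 6 tumors most like those of Jchain were those of Gm10243 (Pearson's r = 0.994), Gja4 (r = 0.991) and Pcyt2 (r = 0.990). Those most like Pigr were Mppe1 (r = 0.986), Nadsyn1 (r = 0.984) and Scp2-ps2 (r = 0.980). They are the top of a long ranking over 6 points and carry no p-value. Gm10243 and Gja4 had at most 5.05 CPM in any tumor.

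The depth of the tumors was even, with 15329810 to 16533732 reads counted on genes. The 8 antibody constant genes took 0.1403%, 0.0302% and 0.0641% of these reads in the Tmem173fl/fl and 0.288%, 0.104% and 0.144% in the Tmem173iΔmye tumors. Tmem173 itself took 1705 to 2911 reads in Tmem173fl/fl and 1953 to 2291 in Tmem173iΔmye, so that its RNA does not separate the groups in whole tumors.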

How the data were processed

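Poly(A) RNA of 6 tumors was sequenced after library preparation with the NEBNext Ultra kit. Per the labels, the authors used CASAVA 1.8, fastp, HISAT2 2.0.5, featureCounts 1.5.0-p3 and DESeq2 1.20.0 on GRCm38. The strand setting and annotation release are not given in the sources used here. The authors deposited raw counts per gene, FPKM values and gene lengths. The deposited FPKM values equal counts divided by gene length, median-of-ratios size factors and a common total, with a largest relative difference of 4.9e-08. The columns of the authors' own comparison, fold changes and p-values from DESeq2, were not used.

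The edgeR quasi-likelihood test (version 4.0.16, R 4.3.3) was fitted to counts of the 16426 genes whose mean FPKM reached 0.5. TMM normalization was used, group was the single factor, and adjustment over all these genes was by Benjamini-Hochberg. The SE was obtained from the log2FC and the F statistic. Shares and ratios per tumor were compared by exact two-sided permutation tests (SciPy 1.17.1). The scripts were tested on simulated counts. Alternatives were DESeq2 1.42.0, limma 3.58.1 on log2(FPKM + 1) and log2(FPKM + 0.1), voom, other filters and scalings, a Y-linked covariate, a replicate block, and fits without single tumors. Tumors had 15329810 to 16533732 reads on genes, and genes with few reads have imprecise values.

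The 10 genes and the lists were chosen with earlier results of these data known. Genes named are the 10 members, a set of fixed genes, some of which are not reported here, the 3 genes with the smallest p-values in each list, and the 3 most like Jchain and Pigr. Cr2, Tnfrsf17, Il5, Lyz2, Ighe, Iglc4, Tmem173 and Xist were named besides, like genes named only for an alternative fit, after their values were seen.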

Additional observations from a re-analysis of the deposited data

How the results depend on the processing

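In edgeR, 1 of the 10 antibody genes, Jchain, was past the study's rule. This number was 5 without a filter, 3 with limma voom, 0 with limma on log2(FPKM + 1) and 0 on log2(FPKM + 0.1), and from 0 to 5 without single tumors (0 without Tmem173fl/fl replicate 2 or Tmem173iΔmye replicate 1, and 5 without Tmem173fl/fl replicate 1). With the replicate number as a block it was 3 (Igha, Igkc and Jchain), with unadjusted p from 3.0e-05 to 0.00031 and adjusted p = 0.240 in edgeR. In both groups these 3 genes were highest in replicate 1 and lowest in replicate 2. Over all genes tested, same-numbered tumors deviated together with correlations of 0.315, 0.008 and 0.154. Not every tumor correlated best with its own number, so that the numbers were not taken as pairs. Under all 16 alternatives, 0 of the 10 genes had an adjusted p under 0.05. Of all 16426 genes tested, 349 were past the study's rule, against 872 of 30939 without a filter. The number was 131 and 285 with limma on log2(FPKM + 1) and log2(FPKM + 0.1), and 274 with voom. With the block it was 377, and with the Y-linked covariate 211. It was 636, 314 and 218 without Tmem173fl/fl replicates 1, 2 and 3 in turn, and 260 without Tmem173iΔmye replicate 1. DESeq2 gave 28 genes with an adjusted p under 0.05. Igha, Igkc, Jchain, Ighg2c and Pigr kept their sign under all alternatives. Ighm turned to 0.0058 with limma voom, to 0.010 with the replicate block and ranged from -1.31 to 0.87 without single tumors. Ighg2b turned to 0.045 and 0.28 with limma on log2(FPKM + 1) and log2(FPKM + 0.1), to 0.36 with voom, to 0.21 with the block, and ranged from -1.19 to 1.36 without single tumors. In the same way Ighg1 ranged from -0.24 to 1.84, Ighg3 from -2.72 to 1.12 and Iglc1 from -0.14 to 2.22. The difference in lambda share ranged from -1.93 to 0.42 percentage points, and that of Jchain over heavy chains from -0.32 to 0.082 on the log2 scale. The other shares and ratios kept their direction under all alternatives, which for the IgA, IgM and IgG shares, the summed heavy chains and Pigr over Igha included the length of the secreted transcript, chosen after the values were seen, and 0 reached an exact p under 0.05, which this design does not allow. With the block, the smallest exact p that 3 pairs can give is 0.25, and the block left the calls of all shares and ratios as they were. Ighg3 could not be fitted at a mean FPKM of at least 1. The cause of these changes was not tested. Depth limits Ighg1, Ighg3, Ccr10 and Il17a, among other genes, with fewer than 15 counts in some tumors.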

Other observations

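Receptors for antibodies, other antibody genes and markers of other cells were also measured. Fcgrt, the neonatal Fc receptor that rescues IgG from degradation, had 45.1, 33.5 and 39.3 CPM in Tmem173fl/fl against 47.2, 54.1 and 56.9 CPM in the Tmem173iΔmye tumors, with a log2FC of 0.42 ± 0.16 (SE, adjusted p = 0.742 from edgeR) and no overlap. The groups did not overlap for this 1 of the 12 receptor genes tested, against 12.4% of all genes. Fcgr4, an activating IgG receptor of myeloid cells, had 14.6 CPM in Tmem173iΔmye replicate 1 and 3.47 to 5.48 CPM in the other tumors. Fcer1a, a chain of the IgE receptor of mast cells, had 9.17 CPM in Tmem173iΔmye replicate 3 and 0.78 to 2.02 CPM in the others. Of 12 Fc and antibody receptor genes tested, 8 were above 0 and 4 below, with a median of 0.34, and 0 were past either rule in edgeR (1 had an unadjusted p-value under 0.05). Without Tmem173iΔmye replicate 2, or without a filter, 2 were past the study's rule (Fcer1a and Fcgr4), and Fcgr4 was past it with DESeq2 and without Tmem173iΔmye replicate 3. Of the other antibody constant genes, Iglc2 had a log2FC of 0.65 ± 0.62 (SE) and Iglc3 of 0.48 ± 0.82 (SE), and these genes are 96.2% identical, so that reads may be split between them. Iglc3 was past the rule without Tmem173fl/fl replicate 1, and Ighd without Tmem173iΔmye replicate 2. Ighe and Iglc4 had at most 4 counts in any tumor.

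The T cell genes tested numbered 7, all above 0 with a median of 0.70 and none past either rule in edgeR (1 gene was under 0.05 before adjustment). Trac, the constant region of the T cell receptor alpha chain, had 3.06, 3.87 and 2.16 CPM in Tmem173fl/fl against 7.32, 4.73 and 4.01 CPM in the Tmem173iΔmye tumors. Without Tmem173fl/fl replicate 1, 3 of them were past the rule (Cd2, Cd3g and Cd8a), and without Tmem173fl/fl replicate 2, 1 was (Trac). Of all 16426 genes, 636 and 314 were past it in these fits. The next T cell genes by p-value were Cd3g (log2FC 0.78 ± 0.45, SE) and Cd3d (1.10 ± 0.70, SE). Of 8 macrophage genes, 6 were above 0 with a median of 0.25 and 0 past either rule in edgeR (0 had an unadjusted p-value under 0.05), and Lyz2, whose promoter drives Cre, had a log2FC of -0.064 ± 0.37 (SE). The complement genes C1qa (0.46 ± 0.22, SE) and C1qb (0.33 ± 0.28, SE) and the co-receptor Cd14 (0.31 ± 0.22, SE) led that list. Of 6 smooth muscle genes, 5 were below 0 with a median of -0.51. Among them Des, which encodes the muscle filament desmin, was past the study's rule at -1.01 ± 0.39 (SE, adjusted p = 0.742 from edgeR), like 2.12% of all genes tested. No gene of that list was past it with the Y-linked covariate or without Tmem173fl/fl replicate 1, Tmem173fl/fl replicate 3, Tmem173iΔmye replicate 1 or Tmem173iΔmye replicate 2. Des alone was past it without Tmem173fl/fl replicate 2, and Cnn1 and Des without Tmem173iΔmye replicate 3, as were 314 and 427 of all 16426 genes. Des also stayed past it with the block and with the other filters, scalings and methods. Cnn1 (-0.68 ± 0.36, SE) and Myh11 (-0.48 ± 0.29, SE) followed Des. The part of these cells in the values of the antibody genes was not tested.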
